A study of Mus musculus with 8 samples.

Results

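AP-1 and the immediate early transcription factors were followed here through 10 genes, picked by symbol from the 18561 genes of the deposited table: Fos, Fosb, Fosl2, Jun, Junb, Jund, Atf3, Egr1, Nr4a1 and Ier2. No measured value entered the choice rule, all 10 genes were in the table, and all 10 passed the filter on low counts in both comparisons. Among them, Fosl2 was higher in each of 5 libraries labelled Emb knockdown (kd in the labels' titles) than in any WT library, by 3.39-fold on average. Atf3 and Egr1 shared that separation, as did 10.8% of all genes tested. With all 8 libraries, 0 of the 10 genes passed edgeR's test (Fosl2 adjusted p = 0.117), as 0.0% of the 15411 genes tested did. Fosl2 and Fosb passed it as higher once the libraries labelled kd 1 and 2 were left out, as 11.1% of all genes did. Fosb missed the threshold when the library labelled kd 4, WT 2 or WT 3 was left out as well. Of the remaining 8 genes, 7 reached their highest level in the libraries labelled kd 1 and 2, and the share of all genes that did so was not counted.

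AP-1 is a dimer of basic leucine zipper proteins, in which a Fos protein has to pair with a Jun protein to bind DNA, while Jun proteins can also pair among themselves. The genes belong to the immediate early class: signals that pass through the MAP kinases reach factors already present in the cell, such as SRF with its ELK partners and CREB, and transcription starts without new protein synthesis. Most of their mRNAs are short-lived and are cleared by decay factors that the same stimulus induces. Growth factors, depolarisation and cell stress are all known to induce them, and so are enzymatic dissociation and sorting, which every library here went through.

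The 8 libraries held sorted enteric neural crest cells, which give rise to the enteric nervous system, from the gastrointestinal tract of mouse embryos at embryonic day 14.5. Of these, 5 libraries had the genotype label Emb knockdown and 3 had the label WT. The cells had been taken from enzymatically dissociated tissue with antibodies against CD271, which is the product of Ngfr, and CD57, a sugar epitope that the product of B3gat1 helps to make. A tube held about 200 cells, whose cDNA was amplified with Smart-seq2. The labels gave neither the means of the knockdown, the mouse strain, nor the number of animals behind a tube. They did not say that libraries came from separate animals, so each p-value is about the spread of these libraries, part or all of which may be technical.

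Libraries held 20116607 to 26959265 expected counts, and 15079 to 17049 genes had a count. Emb, which encodes the cell surface glycoprotein embigin, was not lower in any library labelled kd: it was at 353, 349, 37.2, 21.4 and 21.7 CPM in those labelled kd 1 to 5, against 16.9, 17.7 and 15.9 CPM in WT libraries 1 to 3. CPM stands for counts per 1000000 after TMM scaling, on the scale of all 8 libraries unless stated. Because the targeted gene goes against the label, groups are called libraries labelled kd throughout, and a direction is a difference between labels. The cell type label was not borne out in the libraries labelled kd 1 and 2. There the progenitor gene Sox10 was at 5.51 and 0 CPM and the neuronal tubulin Tubb3 at 1.13 and 0.706 CPM, where the floor of 3 counts in library 2 is 0.141 CPM, for counting error only. The sort antigen genes were low there too, Ngfr at 1.55 and 2.17 CPM and B3gat1 at 0 in both. Csf1r, the macrophage colony-stimulating factor receptor, was at 3024 and 2317 CPM in the same libraries, at 179 to 226 CPM in libraries labelled kd 3 to 5 and at 40.8 to 68.1 CPM in WT. Each result is therefore given with all 8 libraries and with 6, those labelled kd 3 to 5 against WT. In such bulk samples, fewer cells of a type and less RNA per cell cannot be told apart.

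The promoters of 4 genes are shown because these genes span the patterns that follow: Fosl2 and Fosb, which passed the test with 6 libraries, Fos, the most abundant, and Junb, which had the widest spread. Each runs from 250 bases before to 50 bases after a start site on the gene's own strand (RefSeq, GRCm38.p6). For Fosb that site, base 19310045, lies 73 bases inside the gene's outermost RefSeq start, and for the other 3 genes it is the outermost start. Capitals mark matches to the motifs named after them.
Fosl2 (chr5:32136222-32136521, plus strand): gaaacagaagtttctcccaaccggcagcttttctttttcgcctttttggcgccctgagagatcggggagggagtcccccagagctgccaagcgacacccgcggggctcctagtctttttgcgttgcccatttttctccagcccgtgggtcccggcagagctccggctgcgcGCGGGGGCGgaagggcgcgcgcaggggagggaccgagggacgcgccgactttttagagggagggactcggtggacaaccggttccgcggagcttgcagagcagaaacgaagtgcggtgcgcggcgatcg
Fosb (chr7:19309996-19310295, minus strand): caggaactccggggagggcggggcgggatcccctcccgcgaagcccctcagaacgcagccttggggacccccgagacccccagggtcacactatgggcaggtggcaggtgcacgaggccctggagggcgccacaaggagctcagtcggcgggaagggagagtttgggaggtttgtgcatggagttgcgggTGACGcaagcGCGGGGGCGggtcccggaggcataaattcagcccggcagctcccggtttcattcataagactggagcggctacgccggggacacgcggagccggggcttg
Fos (chr12:85473640-85473939, plus strand): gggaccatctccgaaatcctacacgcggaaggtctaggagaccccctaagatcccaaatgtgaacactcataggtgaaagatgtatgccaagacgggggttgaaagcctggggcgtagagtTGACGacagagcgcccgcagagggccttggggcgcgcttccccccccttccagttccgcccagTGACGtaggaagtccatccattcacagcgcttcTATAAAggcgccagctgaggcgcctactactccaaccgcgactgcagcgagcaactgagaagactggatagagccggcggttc
Junb (chr8:84978699-84978998, minus strand): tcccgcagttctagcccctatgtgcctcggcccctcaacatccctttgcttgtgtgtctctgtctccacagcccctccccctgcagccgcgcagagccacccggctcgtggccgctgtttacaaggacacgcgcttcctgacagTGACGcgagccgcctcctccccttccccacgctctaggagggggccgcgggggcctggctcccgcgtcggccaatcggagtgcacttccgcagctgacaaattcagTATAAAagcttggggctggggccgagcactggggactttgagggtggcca
Motifs were searched on both strands, and capitals on the printed strand can be the reverse complement of a motif. The core TGACG of the cAMP response element, which is contained in the full element TGACGTCA, was in 5 of the 8 promoters of these genes in the table (Fos, Fosb, Junb, Atf3 and Nr4a1), against 20.8% of 32851 promoters of the same length. The Nr4a1 window is set on a start site 12944 bases downstream of the gene's outermost start. The Fos promoter had it at bases -129 and -66 from the start site of its window, with a TATAAA box at -33. The EGR site GCGNGGGCG was in 3 (Fosl2, Fosb and Nr4a1), against 5.55% of promoters. These 3 windows had 64.7%, 68.3% and 72.3% GC, against a median of 52.7% over all promoters, so that share is not a like baseline. The 5 windows with TGACG, at 58.7% to 72.3% GC, were above that median too, so 20.8% is not a like baseline either. In the Fosb promoter the EGR site started at -50 from the start site inside the gene, next to TGACG at -60. In the Fosl2 promoter it was the 1 match, at -79. TATAAA was in 2 (Fos and Junb), against 13.6%. In Junb it was at position 1, not before the start site of its window. The full element TGACGTCA (1.79% of promoters), the AP-1 site TGANTCA (7.81%) and the CArG box bound by SRF (1.63%) had no match in any of the 8 windows. Sites more than 250 bases before the start were not searched, so such sites may lie outside the windows. The Jund window was set on the RefSeq start, base 70697739, and ends before the start that GENCODE gives, base 70698949. GENCODE's outermost starts of Fosl2, base 32135801, and Atf3, base 191218039, lie upstream of their windows. That of Junb, base 84978718, lies inside its window. The promoters of Egr1 and Ier2 were not analysed here.

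Per length, as TPM (transcripts per 1000000, scaled by the authors), Fos was the highest of the 10 genes in WT libraries, at 1213 ± 274 TPM (SD, n = 3), and it ranked between 85 and 172 of all genes in each of the 8 libraries. After it in WT came Jun (525 ± 196 TPM), Egr1 (476 ± 91.8 TPM), Nr4a1 (468 ± 154 TPM), Ier2 (454 ± 103 TPM), Jund (443 ± 165 TPM) and Junb (366 ± 130 TPM). Atf3 (195 ± 49.6 TPM) and Fosb (190 ± 36.3 TPM) followed, and Fosl2 was lowest at 11.8 ± 1.88 TPM. Neighbours in this order overlapped between libraries except at its ends, where Fos lay above Jun and Fosb above Fosl2. Fosl2 ranked between 2450 and 4454 in the libraries labelled kd and between 7369 and 7902 in WT. Together the 10 genes made up 0.788%, 0.778%, 0.437%, 0.327% and 0.413% of all TPM in the libraries labelled kd 1 to 5, against 0.299%, 0.505% and 0.498% in WT libraries 1 to 3. Their share was thus highest in the libraries labelled kd 1 and 2 and overlapped between the other groups.

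With all 8 libraries, 0 of the 10 genes passed an adjusted p of 0.05 in edgeR's quasi-likelihood test with Benjamini-Hochberg adjustment, as 0.0% of the 15411 genes tested did. At an unadjusted p under 0.05, 4 were higher (Fosb, Fosl2, Atf3 and Egr1) and 0 lower, while 12.7% of all genes were higher and 5.9% lower by that measure. DESeq2's Wald test called 1 higher (Fosl2, against 10.5% of genes) and 0 lower (against 3.93%). Limma voom with quality weights called 2 higher (Fosl2 and Fosb, against 12.6%) and 0 lower (against 11.6%). For 3 genes, Fosl2, Atf3 and Egr1, every library labelled kd was above every WT library, a pattern of 10.8% of all genes, and for 0 of the 10 was every one below, against 11.9%. All 10 log2 fold changes were above 0, against 53.5% of all genes, and their median was 0.96, against 0.07 for all genes. Without the composition factor of the library size the medians were 0.64 and -0.17, a downward shift of all genes to which the members' values are relative. On log2(FPKM + 1) they were 0.52 and -0.21. With voom's quality weights the members' median was 0.24, and Jun, Junb and Nr4a1 were below 0.

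With 6 libraries, 2 of the 10 genes rose, Fosl2 and Fosb, and 0 fell, against 11.1% of 15115 genes higher and 9.37% lower. DESeq2 called 3 higher (with Atf3, against 17.2% of genes) and 0 lower (against 14.7%), and voom called 2 higher (against 23.3%) and 1 lower (Jun, against 22.2%). For 4 genes, Fosl2, Fosb, Atf3 and Egr1, every library labelled kd was above every WT library, against 20.5% of all genes, and for 0 was every one below, against 22.8%. The median log2 fold change of the 10 genes was 0.31, against 0.02 for all genes, and 7 of 10 were above 0, against 51.1% of all genes.

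**Figure D1:**
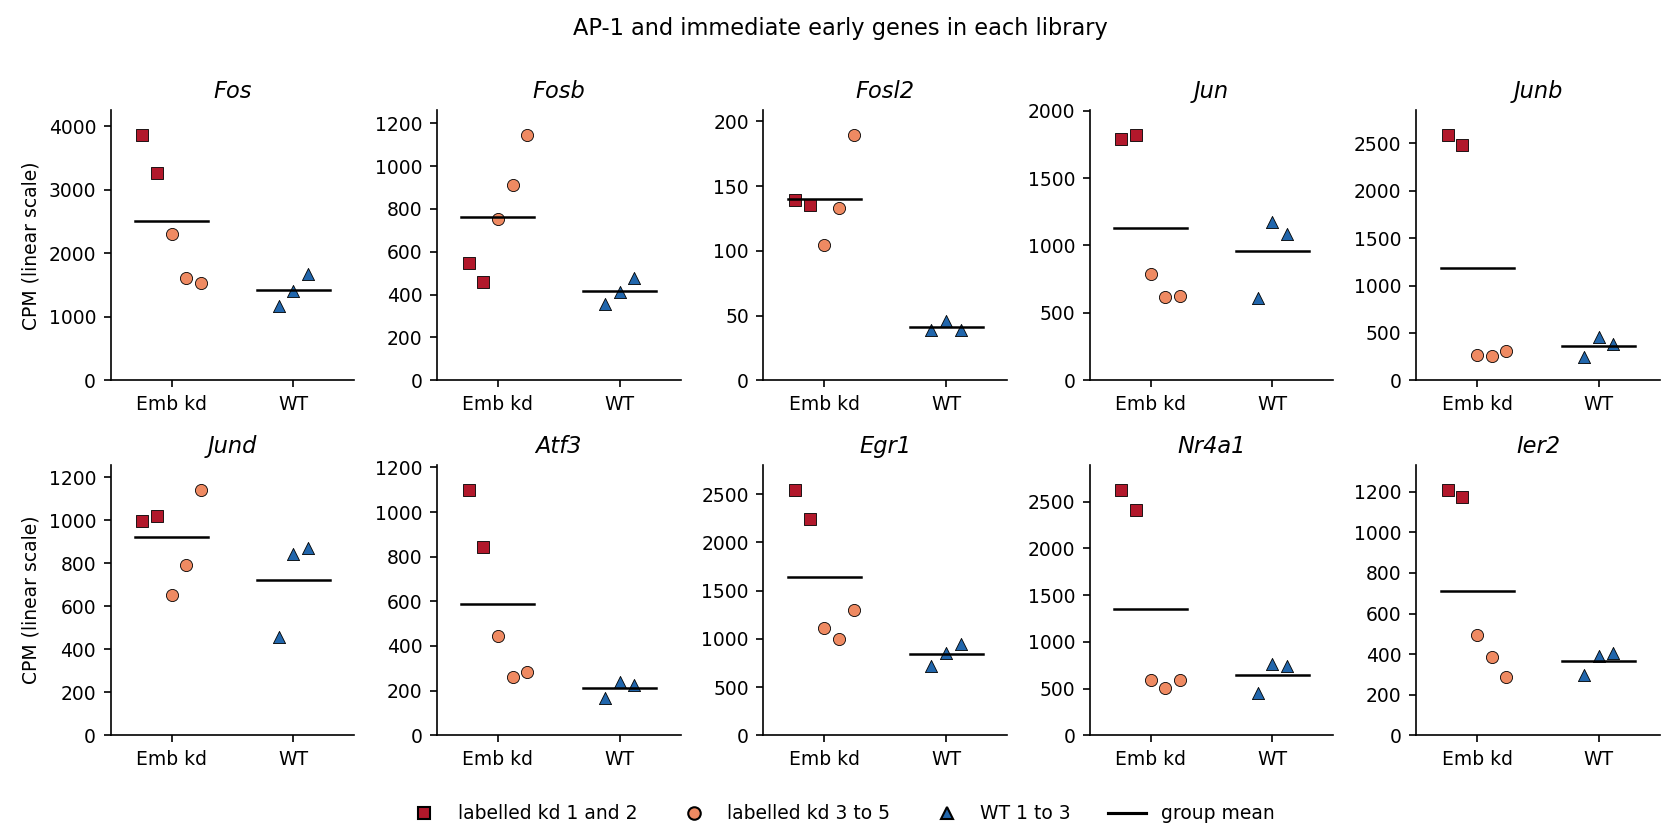
CPM of each of the 10 genes on a linear scale, with 1 point per library and a line at the group mean, libraries labelled Emb kd to the left of WT and a separate vertical scale for each gene. The squares of the libraries labelled kd 1 and 2 sit above all other points for Fos, Jun, Junb, Atf3, Egr1, Nr4a1 and Ier2, while for Fosl2 all 5 points, from 104 to 190 CPM, sit above the WT points at 39.2 to 45.8 CPM.

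Among the Fos family, Fosl2 encodes FRA-2, a Fos protein without the strong activation domain of c-Fos. The gene has identifier 14284 and lies on chromosome 5, from 32136472 to 32157840 on the plus strand (RefSeq, GRCm38.p6), with 4 exons. It was at 139, 135, 104, 133 and 190 CPM in libraries labelled kd 1 to 5, against 39.2, 45.8 and 39.3 CPM in WT libraries 1 to 3. The lowest library labelled kd was thus above the highest WT library, and the libraries labelled kd 1 and 2 lay within the range of the other 3. Fosl2 differed by a log2 fold change of 1.76 ± 0.24 (SE, n = 5 and 3), which did not pass (adjusted p = 0.117), although it was 7th of all genes by p. With 6 libraries Fosl2 rose, with 155 ± 47.3 CPM in those labelled kd and 45.02 ± 4.11 CPM in WT on the scale of 6 libraries (SD, n = 3 each). Its log2 fold change was 1.78 ± 0.24 (SE, adjusted p = 0.00552), and the call held in every one of 14 alternatives tried, with changes of 1.52 to 1.95.

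Fosb encodes FosB, whose short splice form, known as delta FosB, is long-lived, and counts per gene do not separate the forms. It has identifier 14282 and lies on chromosome 7, from 19302696 to 19310118 on the minus strand. Its level was 549, 461, 754, 912 and 1145 CPM in libraries labelled kd 1 to 5, against 357, 412 and 476 CPM in WT libraries 1 to 3. The overlap between the groups came from the library labelled kd 2, at 461 CPM, and Fosb was the member with its lowest labelled kd levels in libraries 1 and 2. The difference over 8 libraries did not pass (log2 fold change 0.88 ± 0.33, SE, adjusted p = 0.214). With 6 libraries Fosb rose, at 1021 ± 214 CPM in those labelled kd and 451 ± 64.7 CPM in WT (SD, n = 3 each, scale of 6 libraries). That log2 fold change was 1.18 ± 0.22 (SE, adjusted p = 0.0136), and it missed the threshold without library kd 4 (adjusted p = 0.0658), WT 2 (adjusted p = 0.0613) or WT 3 (adjusted p = 0.0565).

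Fos encodes c-Fos, the founding member of the family. It has identifier 14281 and lies on chromosome 12, from 85473890 to 85477274 on the plus strand. Fos was at 3868, 3269, 2299, 1612 and 1532 CPM in libraries labelled kd 1 to 5, against 1172, 1409.5 and 1676 CPM in WT libraries 1 to 3. Libraries labelled kd 1 to 3 were above every WT library, and those labelled kd 4 and 5 fell inside the WT range. Neither comparison passed, with log2 fold changes of 0.83 ± 0.36 over 8 libraries (SE, adjusted p = 0.274) and 0.36 ± 0.24 over 6 (SE, adjusted p = 0.300).

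Of the Jun family, Junb encodes JunB, a partner of Fos proteins that is a weaker activator than c-Jun. It is a single-exon gene with identifier 16477 on chromosome 8, from 84976909 to 84978748 on the minus strand. Junb was at 2590 and 2483 CPM in libraries labelled kd 1 and 2 and at 268, 254 and 308 CPM in libraries labelled kd 3 to 5, against 252, 459 and 379 CPM in WT libraries 1 to 3. The first pair therefore stood far above all the others, and the remaining 3 overlapped WT. The log2 fold change was 1.70 ± 0.98 over 8 libraries (SE, adjusted p = 0.402), -0.21 over the same libraries with voom's quality weights, and -0.39 ± 0.23 over 6 (SE, adjusted p = 0.253). Prdx2, a peroxiredoxin gene on the opposite strand, overlaps Junb, and Smart-seq2 does not mark strand. Prdx2 was lowest where Junb was highest, at 352 and 347 CPM in libraries labelled kd 1 and 2, against 763 to 1076 CPM in the other 6. GENCODE extends Junb to base 84974484, beyond the RefSeq span. Whether reads of Prdx2 entered the Junb counts was not tested.

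Jun encodes c-Jun, and Jund encodes JunD, whose mRNA is known to be less inducible and more constant than that of the other family members. Both are single-exon genes, Jun with identifier 16476 on chromosome 4, from 95049036 to 95052222 on the minus strand, and Jund with identifier 16478 on chromosome 8, from 70697739 to 70700616 on the plus strand. Each has an annotated antisense gene on its other strand, Junos for Jun and Gm11175 for Jund, whose reads cannot be told apart from theirs. Jun was at 1788 and 1820 CPM in libraries labelled kd 1 and 2 and at 787, 615 and 627 CPM in libraries labelled kd 3 to 5, against 612, 1173 and 1083 CPM in WT libraries 1 to 3. Without the first pair, the libraries labelled kd lay inside the WT range, towards its lower end. The log2 fold change of Jun was 0.24 ± 0.48 over 8 libraries (SE, adjusted p = 0.837) and -0.50 ± 0.26 over 6 (SE, adjusted p = 0.202). Its sign over 8 libraries depended on the scaling, being -0.12 with library size alone. With voom's quality weights over 6 libraries Jun was called lower, at -0.63 (adjusted p = 0.0411). Jund was at 997, 1020, 652, 791 and 1141 CPM in libraries labelled kd 1 to 5, against 456, 841 and 872 CPM in WT libraries 1 to 3. The groups overlapped, WT library 1 was the lowest of all, and neither comparison passed, with log2 fold changes of 0.35 ± 0.29 (SE, adjusted p = 0.569) and 0.25 ± 0.30 (SE, adjusted p = 0.568).

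Atf3 encodes a basic leucine zipper factor of the ATF group that can pair with Jun proteins and is known to be induced by cell stress. It has identifier 11910 on chromosome 1, from 191170296 to 191183333 on the minus strand, and the small RNA gene Gm24748 overlaps it on the other strand. Atf3 was at 1100 and 843 CPM in libraries labelled kd 1 and 2 and at 445, 259 and 285 CPM in libraries labelled kd 3 to 5, against 167, 241 and 225 CPM in WT libraries 1 to 3. The groups did not overlap in either comparison, but the library labelled kd 4 lay close to WT 2. Atf3 did not pass, with log2 fold changes of 1.47 ± 0.54 over 8 libraries (SE, adjusted p = 0.211) and 0.65 ± 0.25 over 6 (SE, adjusted p = 0.0931). DESeq2 called it with 6 libraries (0.65, adjusted p = 0.0437).

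Egr1 encodes a zinc finger factor that binds GC-rich sites, with identifier 13653 on chromosome 18, from 34861207 to 34864956 on the plus strand. It was at 2545 and 2243 CPM in libraries labelled kd 1 and 2 and at 1117, 993 and 1299 CPM in libraries labelled kd 3 to 5, against 719, 857 and 949.5 CPM in WT libraries 1 to 3. The groups did not overlap, although the library labelled kd 4 and WT 3 lay close together. Egr1 did not pass, with log2 fold changes of 0.96 ± 0.37 over 8 libraries (SE, adjusted p = 0.226) and 0.43 ± 0.20 over 6 (SE, adjusted p = 0.145).

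Nr4a1 encodes NUR77, an orphan nuclear receptor, and Ier2 encodes a short-lived nuclear regulator without a known DNA-binding domain. Nr4a1 has identifier 15370 on chromosome 15, from 101253902 to 101274795 on the plus strand, and Ier2, with 1 exon, has identifier 15936 on chromosome 8, from 84661331 to 84662852 on the minus strand. Nr4a1 was at 2628 and 2406 CPM in libraries labelled kd 1 and 2 and at 597, 507 and 597 CPM in libraries labelled kd 3 to 5, against 449, 759 and 743 CPM in WT libraries 1 to 3. Ier2 was at 1210 and 1174 CPM in libraries labelled kd 1 and 2 and at 493, 388 and 286 CPM in libraries labelled kd 3 to 5, against 298, 390 and 407 CPM in WT libraries 1 to 3. For both genes the first pair stood above all other libraries and the remaining groups overlapped. Nr4a1 had log2 fold changes of 1.05 ± 0.67 over 8 libraries (SE, adjusted p = 0.451) and -0.20 ± 0.23 over 6 (SE, adjusted p = 0.568). Ier2 had log2 fold changes of 0.96 ± 0.53 over 8 libraries (SE, adjusted p = 0.382) and 0.10 ± 0.23 over 6 (SE, adjusted p = 0.797).

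**Figure D2:**
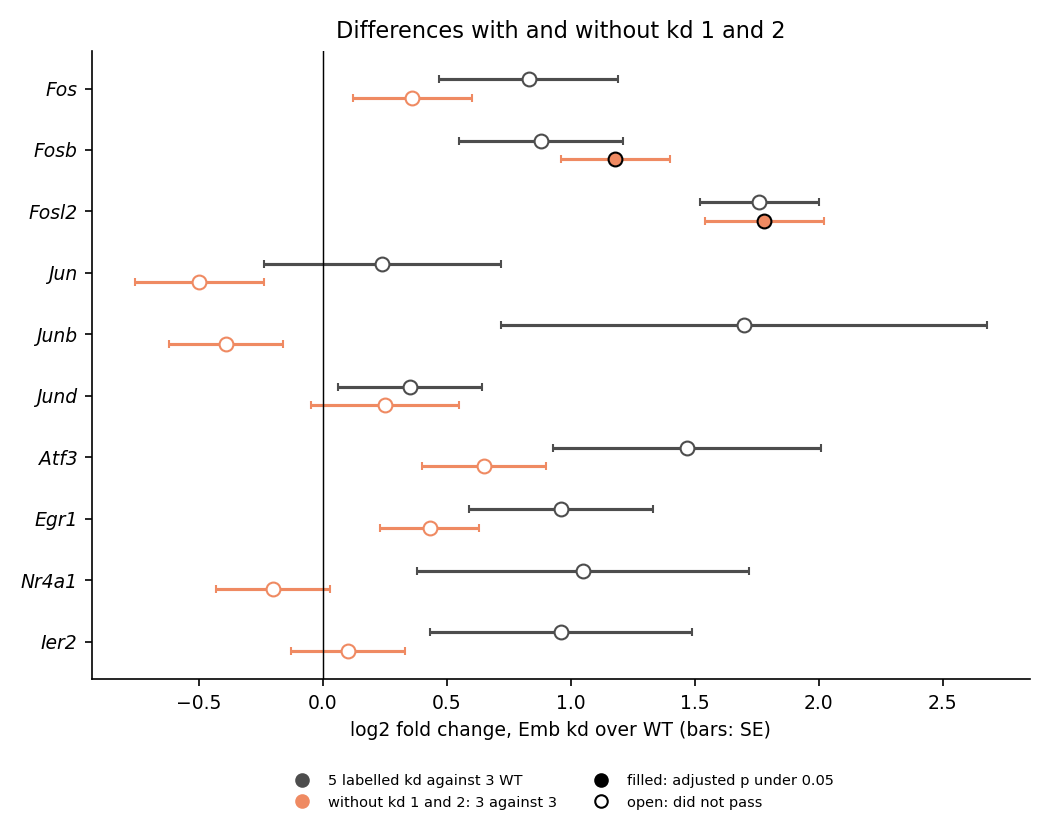
Log2 fold change of each gene, libraries labelled Emb kd over WT, with all 8 libraries and, below it, with the 6 that leave out kd 1 and 2; bars are 1 SE and filled points passed an adjusted p of 0.05. Fosl2 keeps its place at 1.76 and 1.78, Fosb moves up to 1.18, and Junb moves most, at 1.70 and -0.39.

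The makeup of the Fos and Jun families was compared per length, as each gene's percent of the summed TPM of Fos, Fosb, Fosl2, Jun, Junb and Jund. The 3 Fos genes together took 46.4% and 42.7% in the libraries labelled kd 1 and 2 and 68.2%, 63.3% and 58.6% in libraries labelled kd 3 to 5, against 57.7%, 46.7% and 52.6% in WT libraries 1 to 3. Over 8 libraries the groups overlapped, at 55.9 ± 10.9% in those labelled kd and 52.4 ± 5.5% in WT (SD, n = 5 and 3), a difference of 3.5 points (exact two-sided permutation test, p = 0.607, smallest possible 0.0357). Over 6 libraries the share was 63.4 ± 4.8% in those labelled kd and 52.4 ± 5.5% in WT (SD, n = 3 each). The groups did not overlap and differed by 11 points, and the exact two-sided permutation test gave p = 0.1, the smallest that 3 libraries against 3 allow.

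The shares of Jun, Junb and Fosb differed between libraries. Jun took 12.6%, 13.9%, 12.5%, 11.5% and 10.5% of the summed TPM in libraries labelled kd 1 to 5. In WT libraries 1 to 3 it took 16.4%, 21.1% and 18.6%, so every library labelled kd lay below every WT library. Junb took 33.2% and 34.7% of the summed TPM in the libraries labelled kd 1 and 2 and 7.8%, 8.7% and 9.4% in libraries labelled kd 3 to 5, against 12.3%, 15.2% and 12.0% in WT libraries 1 to 3. Fosb stood at 7.7% and 7.6% of the Fos TPM in the libraries labelled kd 1 and 2 and at 17.7%, 31.2% and 41.4% in libraries labelled kd 3 to 5, against 16.4%, 15.6% and 15.2% in WT libraries 1 to 3. The ratio of Fosb to Fos was thus below WT in the first pair and above WT in the other 3. These shares of single genes were not tested.

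**Figure D3:**
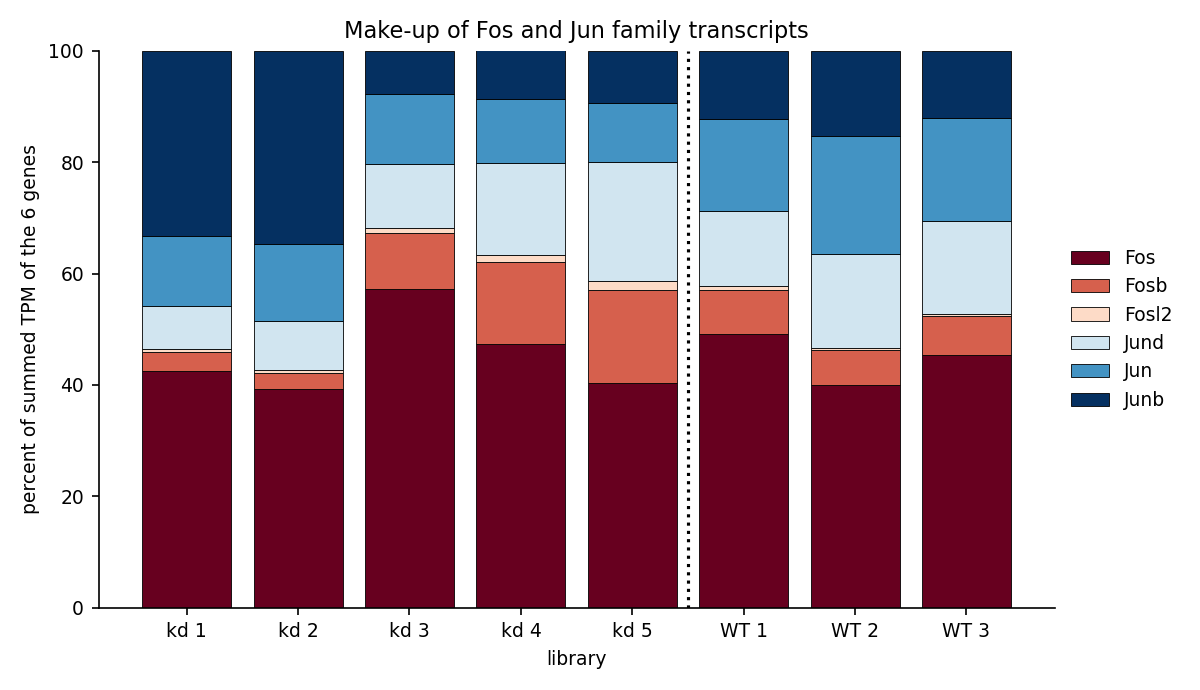
Percent of the summed TPM of the 6 Fos and Jun family genes in each library, Fos genes in reds at the bottom and Jun genes in blues at the top, libraries labelled kd to the left of the dotted line and WT to its right. Junb fills 33.2% and 34.7% of the bars of kd 1 and 2 and at most 15.2% of every other bar, and the Fosb band is widest in kd 5, at 16.7%.

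Other genes of the AP-1 superfamily gave no call in edgeR's test: of 10 listed (Fosl1, Batf, Batf2, Batf3, Jdp2, Atf2, Atf7, Maff, Mafg and Mafk), 0 passed with 8 libraries and 0 of the 9 tested passed with 6. Their median log2 fold changes were 0.61 and 0.38. The smallest p with 6 libraries belonged to Atf7, a CREB-related partner of Jun proteins (0.63 ± 0.22, SE, adjusted p = 0.0718), and Batf3, known from dendritic cell development (1.26 ± 0.46, SE, adjusted p = 0.0809), and neither passed. DESeq2 called 3 higher and 0 lower with 8 libraries, against 10.5% and 3.93% of all genes. With 6 libraries it called 2 higher and 0 lower, against 17.2% and 14.7%. Voom called 0 with 8 libraries, against 12.6% higher and 11.6% lower. With 6 libraries voom called 2 higher and 1 lower, against 23.3% and 22.2%. The same shares of all genes apply to the DESeq2 and voom counts of the lists that follow. Without the library labelled kd 3, edgeR called 3 higher and 1 lower with the other 5 libraries.

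Other immediate early genes rose in part. Of 22 listed, 0 passed with 8 libraries in edgeR's test, where DESeq2 called 8 and voom 7 higher and both called 0 lower. With 6 libraries 8 rose, against 11.1% of all genes, 0 fell, against 9.37%, and the other 14 missed the threshold, around a median of 0.49 on the log2 scale. Ier3, which encodes a small stress-induced regulator of cell survival, was at 510, 374, 114, 147 and 152 CPM in libraries labelled kd 1 to 5, against 36.4, 27.0 and 39.7 CPM in WT libraries 1 to 3. Its groups lay far apart, with a log2 fold change over 6 libraries of 2.00 ± 0.21 (SE, adjusted p = 0.00343). Nr4a3, the nuclear receptor NOR1 and a relative of Nr4a1, was at 27.5, 19.1, 7.81, 19.1 and 21.5 CPM in libraries labelled kd 1 to 5, against 2.78, 2.38 and 4.48 CPM in WT libraries 1 to 3, and it rose by 2.33 ± 0.45 (SE, adjusted p = 0.0144). Gadd45b, a stress-response gene, rose by 1.57 ± 0.22 (SE, adjusted p = 0.00680), and Ier5 rose by 1.79 ± 0.26 (SE, adjusted p = 0.00754). Egr2, Klf2, Klf4 and Klf6 also rose, while Egr3 (1.00 ± 0.31, SE, adjusted p = 0.0526) and Klf10 (-0.67 ± 0.23, SE, adjusted p = 0.0672) did not pass. Over all 8 libraries, the lowest Klf4 level in those labelled kd, 36.4 CPM, was below the WT minimum of 56.6 CPM. The count of 8 was 2 without the library labelled kd 4, 3 without WT 2, 4 without WT 3 and 5 without WT 1. Ier3 and Gadd45b held with each library left out. Ier5 missed the threshold without library kd 4 (adjusted p = 0.0517), and Nr4a3 without that library (adjusted p = 0.0737) or WT 2 (adjusted p = 0.0621).

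Among 19 listed signalling genes upstream, calls were about as frequent as among all genes. With 6 libraries 2 rose, against 11.1% of all genes, 2 fell, against 9.37%, and the other 15 missed the threshold, around a median of -0.23 on the log2 scale. With 8 libraries 0 passed in edgeR's test, while DESeq2 called 1 higher and 1 lower and voom 3 higher and 2 lower. Srf, the serum response factor, was at 61.3, 47.1, 101, 169 and 190 CPM in libraries labelled kd 1 to 5, against 101, 68.4 and 76.9 CPM in WT libraries 1 to 3. Its lowest levels were in the libraries labelled kd 1 and 2, and with 6 libraries it rose by 0.91 ± 0.26 (SE, adjusted p = 0.0418). Rps6ka3, the kinase RSK2 downstream of ERK, rose by 1.18 ± 0.31 (SE, adjusted p = 0.0327). The MAP kinase kinase genes Map2k1 and Map2k7 fell, with log2 fold changes of -0.68 ± 0.17 (SE, adjusted p = 0.0256) and -0.69 ± 0.17 (SE, adjusted p = 0.0266). In the libraries labelled kd 1 and 2, Map2k1 was above WT, at 222 and 202 CPM against 126 to 140 CPM, and Map2k7 was inside the WT range. The calls of Srf, Rps6ka3, Map2k1 and Map2k7 with 6 libraries were lost in most fits with 1 library left out. In such fits 0 genes of the list passed without the library labelled kd 4, WT 1, WT 2 or WT 3. The count was 1 without that labelled kd 5 and 11 without that labelled kd 3. The count of all genes called moved as well, from 3090 to between 180 and 5982. The log2 fold changes kept their signs, at -0.78 to -0.59 for Map2k1, -0.75 to -0.62 for Map2k7, 0.99 to 1.44 for Rps6ka3 and 0.73 to 1.12 for Srf.

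Of 12 genes of mRNA decay and of feedback on the pathway, 3 rose with 6 libraries, against 11.1% of all genes, 2 fell, against 9.37%, and the other 7 missed the threshold, around a median of -0.19 on the log2 scale. Over 8 libraries edgeR's test passed 0 of them, DESeq2 called 2 higher, and voom called 2 higher and 2 lower. Zfp36, which encodes tristetraprolin, the protein that targets AU-rich mRNAs for decay, was at 4483, 3771, 656, 552 and 624 CPM in libraries labelled kd 1 to 5, against 305, 305 and 363 CPM in WT libraries 1 to 3. All libraries labelled kd were above WT, the first pair by far, and with 6 libraries Zfp36 rose by 0.92 ± 0.17 (SE, adjusted p = 0.0141). Its relative Zfp36l2 rose by 1.03 ± 0.21 (SE, adjusted p = 0.0165), as did Cnot1, the scaffold of the deadenylase complex (0.81 ± 0.25, SE, adjusted p = 0.0485). The MAP kinase phosphatases Dusp6 and Dusp4, which are themselves ERK-induced, fell, with log2 fold changes of -1.07 ± 0.18 (SE, adjusted p = 0.0105) and -1.41 ± 0.28 (SE, adjusted p = 0.0148). Dusp6 was at 330, 297, 104, 78.6 and 80.6 CPM in libraries labelled kd 1 to 5, against 167, 195 and 191 CPM in WT libraries 1 to 3, so that the first pair lay above WT and the other 3 below it. None of the 12 genes passed without the library labelled kd 4, WT 2 or WT 3.

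**Figure D4:**
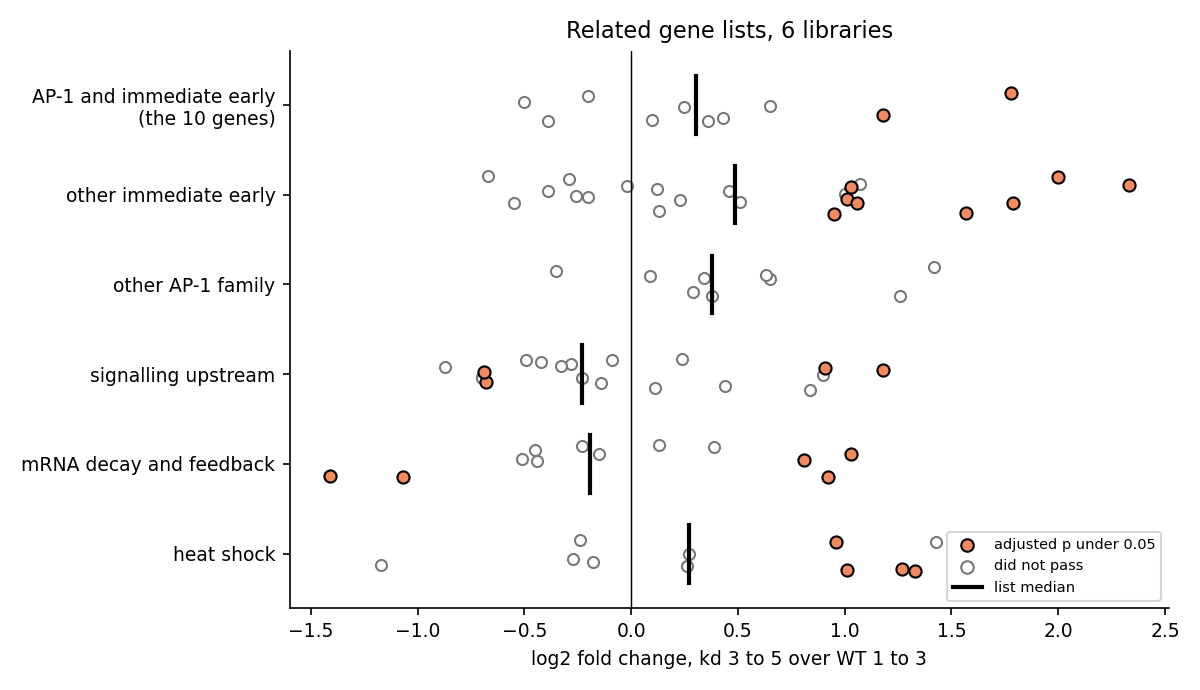
Log2 fold change over 6 libraries, labelled kd 3 to 5 over WT 1 to 3, of each gene on 6 lists, with filled points for an adjusted p under 0.05 and a bar at each list's median. Fosl2 and Fosb are the filled points of the top row, at 1.78 and 1.18, and the filled points of the decay and feedback row lie on both sides of 0, at -1.41 to 1.03.

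Heat shock genes, which respond to cell stress by another route, rose in part: of 11, with 6 libraries 4 rose, against 11.1% of all genes, 0 fell, against 9.37%, and 7 missed the threshold. With 8 libraries 0 passed in edgeR's test, DESeq2 called 1 higher and voom 3 higher and 1 lower. With 6 libraries Hspb1, a small chaperone, rose by 1.33 ± 0.19 (SE, adjusted p = 0.00645), and Hspe1, Hsp90aa1 and Hspa1a rose by 1.27, 1.01 and 0.96. In the libraries labelled kd 1 and 2, Hspb1 was below WT, at 1.29 and 5.56 CPM against 19.3 to 26.1 CPM. Hsp90aa1 was below WT there too, at 520 and 558 CPM against 584 to 814 CPM. Hspe1 and Hspa1a were above WT in every library labelled kd. The list median was 0.27. Without the library labelled kd 4, WT 2 or WT 3 the count was 1, and without that labelled kd 5 it was 2.

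Markers of cell types also differed between the labels. Of the 20 leukocyte markers, 15 rose and 0 fell with 6 libraries, against 11.1% and 9.37% of all genes, and their summed level was 29340 to 34480 CPM in libraries labelled kd 1 and 2 and 1635 to 2966 CPM in libraries labelled kd 3 to 5, against 532 to 794 CPM in WT. The 10 AP-1 and immediate early genes summed to 15860 to 17410 CPM, 6463 to 7516 CPM and 4520 to 6850 CPM in the same order of libraries. Of 12 neural crest progenitor markers, 0 rose and 9 fell, with summed levels of 361 to 413 CPM in libraries labelled kd 1 and 2 and 1088 to 1302 CPM in libraries labelled kd 3 to 5, against 3160 to 3163 CPM in WT. With 6 libraries, of 12 mesenchymal markers 8 rose, of 12 endothelial markers 11 fell, of 15 neuronal markers 6 fell, and of 10 glial and Schwann cell markers 3 fell. The mesenchymal sum was 68.6 to 490 CPM in libraries labelled kd 1 and 2, below the 2662 to 3896 CPM of WT. In libraries labelled kd 3 to 5 it was above WT, at 5318 to 5896 CPM. With all 8 libraries 0 markers passed in edgeR's test, as 0 of all genes did. None of 6 smooth muscle and 8 epithelial markers passed in edgeR's test, where voom called 1 smooth muscle gene higher and 1 epithelial gene lower, and of 8 erythroid markers 2 fell. Without the library labelled kd 4, the counts were 9 leukocyte and 2 mesenchymal markers higher and 6 progenitor, 4 endothelial, 0 neuronal, 1 glial and 0 erythroid markers lower. With each of the other 5 libraries left out in turn, 11 to 19 leukocyte and 2 to 7 mesenchymal markers were higher, and 7 to 9 progenitor, 4 to 12 endothelial, 2 to 6 neuronal, 1 to 4 glial and 0 to 2 erythroid markers were lower. The mesenchymal count was lowest without WT 2, and those of endothelial, neuronal and glial markers without WT 3. The part of these cell type differences in the levels of Fosl2, Fosb and the other genes was not tested. In the libraries labelled kd 1 and 2, where the leukocyte sum was highest, Fosl2 was at 139 and 135 CPM, and in the other 3 labelled kd it was at 104 to 190 CPM.

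Across all 8 libraries, likeness of pattern was measured as the root mean square difference of log2 CPM, each gene centred on its mean, over 11111 genes with a mean log2 CPM of at least 3. Nearest to Fos were Rnft1 (0.12), Nudt22 (0.13), H6pd (0.15), Eef2kmt (0.16) and 3830406C13Rik (0.16). Among the 10 genes, Egr1 was nearest to Fos, at rank 31 with a difference of 0.22, and Ier2 was at rank 188 with 0.28. The Fos relatives were far from it, Fosl2 at rank 5647 with 0.73 and Fosb at rank 6246 with 0.79, and Junb was at rank 7190 with 0.90. Nearest to Jun were Nr1h2 (0.16), Sh3kbp1 (0.16), Tubb6 (0.17), Sephs2 (0.17) and Strada (0.18). These are descriptions over 8 points that share libraries and depth.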

How the data were processed

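Expected counts, FPKM, TPM and a normalised count (a signal) were deposited by the authors for each library, per the file headers. The expected counts were estimated by the authors per gene and deposited without scaling, per the file headers. Depending on the library, 17.6% to 19.8% of them were not whole. FPKM and TPM correct for gene length and sequencing depth and came from the authors, per the file headers. The normalised signal was deposited as counts times 1 factor per library and was not used for tests. Group means in 8 further columns were left aside. HISAT, Bowtie2 and GRCm38.p6 were used per the submitters' processing notes. Neither a counter nor an annotation is named (not given in the sources used here). Per the labels' protocols the cDNA came from Smart-seq2, without strand or molecular identifiers, so amplified copies were counted and overlapping genes can share reads.

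Expected counts were rounded to whole numbers, passed through filterByExpr, and normalised by TMM. The test was edgeR's quasi-likelihood F test, robust and two-sided (edgeR 4.0.16, R 4.3.3). Benjamini-Hochberg adjustment ran over all genes tested, with a threshold of 0.05. The 5 libraries labelled kd were compared with 3 WT libraries, and the fit was repeated, with its own factors and filter, without those labelled kd 1 and 2. Standard errors are the absolute log2 fold change divided by the square root of the F statistic. Family shares used TPM and an exact two-sided permutation test over libraries. Log2 CPM for likeness used a prior count of 2. The gene test was tested on simulated data. Alternatives were DESeq2 1.42.0, its size factors in edgeR, limma 3.58.1 voom with quality weights, library size alone, no filter or at least 1 CPM in 3 libraries, log2(FPKM + 1), log2(FPKM + 0.1), each library left out, and a replicate block. Tables were made in pandas 2.3.3 and scipy 1.17.1 under Python 3.11.15, and figures in matplotlib 3.10.9.

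The 10 genes, the lists of related genes and the comparison of 6 libraries were chosen with earlier results of these data known. The genes named were the 10 members, Emb, the 5 genes nearest to Fos and to Jun, from each related list up to 4 genes past the threshold with the smallest p in the comparison of 6 libraries, or the 2 with the smallest p where none passed, and markers of cell types. Egr2, Egr3, Klf2, Klf4, Klf6, Klf10, Cnot1 and Prdx2 were named after their values were seen.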

Additional observations from a re-analysis of the deposited data

How the results depend on the processing

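Of the 10 genes, Fosl2 kept its call with 6 libraries under every alternative (log2 fold changes of 1.52 to 1.95, adjusted p of 3.69e-10 to 0.0437). The count of members higher with 6 libraries was 1 to 2 with each library left out, and the count of all genes called, 3090, was 180 to 5982, lowest without the library labelled kd 4. The count of members lower was 1 with voom (Jun, -0.63), which called 6875 genes. Of the calls with 6 libraries 54.1% were higher, against 45.4% with library size alone and 38.4% on log2(FPKM + 1). With 8 libraries DESeq2 called 1 member and 2220 genes, voom 2 members and 3720 genes, and leaving out each library gave 0 to 2 genes (2 without that labelled kd 3). Signs turned for Jun with 8 libraries (voom -0.47, library size alone -0.12, log2(FPKM + 1) -0.15, log2(FPKM + 0.1) -0.15), Junb (voom -0.21) and Nr4a1 (voom -0.13). With 6 libraries they turned for Jund (-0.0017 without kd 5, leave-one-out up to 0.41) and Ier2 (log2(FPKM + 1) -0.02, log2(FPKM + 0.1) -0.03, -0.13 without kd 3, -0.04 without WT 1, leave-one-out up to 0.28). The cause was not tested. The Fos family share differed by 0.4 to 6.8 points with 8 libraries and 8.2 to 13.7 points with 6 over the alternatives.

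No pairing by replicate number was seen: the correlations of deviations between same-numbered libraries were -0.03, 0.04 and -0.04 across genes. These correlations cannot exclude pairing, because the libraries labelled kd 1 and 2 differed from that labelled kd 3 in markers of cell types. A replicate block called 0 genes with 8 libraries, as did the fit without a block. No paired analysis was possible for 6 libraries because the groups share 1 number only.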
